A study of Mus musculus with 8 samples.

Results

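Transcripts of 10 genes of the Nrf2 antioxidant system were followed through 4 culture conditions of mouse spermatogonial stem cells (SSCs), which maintain sperm production. The genes were chosen by name, with earlier results of these data known. They are *Nfe2l2* (which encodes NRF2), *Keap1* (which encodes its inhibitor) and the target genes *Nqo1*, *Hmox1*, *Gclc*, *Gclm*, *Txnrd1*, *Srxn1*, *Gsr* and *Osgin1*. Each name matched 1 row of the deposited table of 55421 genes, and all 10 were among the 20477 genes that passed the filter on low counts. The SSC cultures came from 6-day-old pups of the C57BL/6XDBA/2 F1 background and grew on irradiated mouse embryonic fibroblasts, so feeder RNA can enter each library. Vehicle cultures (Veh) stayed in complete SSC medium, RA cultures received 100 nM retinoic acid in that medium, NR cultures were placed in nutrient restriction medium made of 10% complete medium and 90% Earle's balanced salt solution (EBSS), and NRRA cultures received retinoic acid in the restriction medium. The sample titles call the last 2 conditions EBSS and RA_EBSS. Treatment lasted 2 days and each condition has 2 libraries, which the study describes as independent biological replicates. The comparisons ask how the antioxidant genes differ with retinoic acid, with nutrient restriction and with both.

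NRF2 is a transcription factor that is kept low in unstressed cells, because KEAP1 binds it and hands it to a CUL3 ubiquitin ligase for degradation. Oxidants and electrophiles modify KEAP1, NRF2 then accumulates, pairs with small MAF proteins and binds antioxidant response elements (AREs) near genes for glutathione synthesis, thioredoxin reduction, quinone reduction and heme breakdown. The control acts mainly on the protein, so the level of *Nfe2l2* mRNA is not a measure of NRF2 activity. *Hmox1* is also controlled by other factors, among them the repressor BACH1, which competes for the same elements.

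The core of the ARE is commonly written TGACNNNGC. RefSeq promoter windows (GRCm38.p6), which run from 250 bases before to 50 bases after a transcription start, were found for 7 of the 10 genes and 9 starts, 3 of them in *Txnrd1*. The core was searched on both strands, and 4 of the 9 windows held it, against 12.4% of all 32851 windows of that length. The stricter form TGACTCAGC, a subset of the core, stood in none of the 9 and in 0.454% of all windows. The 4 matches are shown because their genes took different courses across the conditions. They are printed 5′ to 3′ on the strand of the gene with 10 bases on each side, and capitals mark the core, written as its reverse complement where it lies on the other strand.
*Nfe2l2*, chr2:75704885-75704913, minus strand: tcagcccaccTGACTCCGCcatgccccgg
*Gclm*, chr3:122245413-122245441, plus strand: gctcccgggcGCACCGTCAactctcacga
*Txnrd1*, chr10:82859104-82859132, plus strand: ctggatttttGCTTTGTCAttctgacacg
*Srxn1*, chr2:152105542-152105570, plus strand: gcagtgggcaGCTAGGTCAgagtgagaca
Counted from the start, the first 3 matches began at positions -240, -134 and -92, and that of *Srxn1* ran from position 29 to 37. The *Txnrd1* match lies at 1 of its 3 starts. The windows of *Nqo1*, *Keap1* and *Osgin1* did not hold these letters. A match to letters is a description and does not show that NRF2 binds there.

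Libraries summed to between 19261333 and 30023585 counts, and the share of counts on mitochondrially encoded genes ran from 2.12% to 2.53%. Germ cell markers were present in each library, with *Dazl* at 299 CPM (counts scaled to a common library total) or more and *Ddx4* at 131 CPM or more. The retinoic acid target *Stra8* was at most 1.51 CPM in Veh and at least 632 CPM in RA. RNA of fibroblast marker genes was also abundant and moved with the conditions. The 12 fibroblast markers summed to 20053 and 20314 CPM in Veh, to 17381 and 16143 with RA, to 32701 and 34116 with NR and to 27233 and 26471 with NRRA. These sums are carried by *Fn1* and the collagens, and the single markers were divided. Against Veh, 1 of the 12 was higher and 8 lower in RA, 10 were higher and 1 lower in NR, and 8 were higher and 4 lower in NRRA, where the lower ones were *Fn1* (-0.55 on the log2 scale), *Lum* (-0.74), *Fbn1* (-0.10) and *S100a4* (-2.32). *S100a4*, by which the study recognised feeder cells, had 3.22 and 3.08 CPM in Veh and 0.46 and 0.77 in NRRA. The 6 germ cell markers summed to 811 to 829 CPM in Veh and 1048 to 1067 in NRRA, with *Ddx4*, *Dazl* and *Sall4* higher and *Mael*, *Tex19.1* and *Dnd1* lower. Markers of undifferentiated spermatogonia summed to 725 to 781 CPM in Veh, 269 to 273 in RA, 694 to 713 in NR and 139 to 140 in NRRA. In NRRA vs Veh 6 of these 7 were lower, and *Id4* (0.091 on the log2 scale) did not pass. Markers of differentiating spermatogonia summed to 164 to 172 CPM in Veh, 1027 to 1037 in RA, 178 to 180 in NR and 1468 to 1516 in NRRA. The similar sums of Veh and NR hide opposite changes. In NR vs Veh *Stra8* (3.44 on the log2 scale), *Kit* (1.91) and *Sohlh1* (1.07) were higher and *Sohlh2* (-0.60) was lower. *Stra8* had 14.6 and 14.3 CPM in the NR libraries. Sertoli cell markers summed to 38.5 and 35.7 CPM in Veh and to 24.1 and 24.7 in RA. In NR they came to 42.2 and 45.3 CPM, and in NRRA to 12.7 and 11.8. *Sox9* had the highest level of these, with 32.6 and 31.2 CPM in Veh, and was lower in NRRA (-2.16 on the log2 scale). *Wt1* was higher in RA (0.97) and did not pass in NRRA (-0.026), and *Amh* was at 0.25 CPM or less. Leydig cell markers summed to at most 14.9 CPM, with *Star* at 12.1 and 13.7 CPM in RA and *Insl3* at 0.32 CPM or less. Macrophage markers summed to between 89.1 and 131 CPM. A bulk library cannot tell fewer cells of a type from less RNA per cell, and the part of the fibroblasts in the values below was not tested.

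Under nutrient restriction 6 of the 10 genes were lower and 1 was higher. Relative to Veh, *Nqo1* was 4.70-fold lower in NR, *Hmox1* 3.31-fold and *Srxn1* 2.87-fold, *Txnrd1*, *Nfe2l2* and *Gclc* fell by smaller amounts, and *Gsr* rose. At an adjusted p under 0.05 (edgeR's quasi-likelihood test, adjusted over all 20477 genes), 7 of 10 genes were called in NR vs Veh, against 43.9% of all genes tested (22.2% lower, 21.7% higher). The 3 genes that were lower by at least 2-fold compare with 2.96% of all genes. In NRRA vs Veh the count was again 6 lower and 1 higher, where 58.9% of all genes were called (28.7% lower, 30.1% higher), and 3 genes were at least 2-fold lower, against 6.02% of all genes. RA alone gave 5 lower and 1 higher, against 43.2% of all genes (23.4% lower, 19.8% higher), and none of the 10 changed by 2-fold or more, against 7.49% of all genes. Scaled by library totals alone, 6 were lower and 2 higher in NRRA vs Veh, and 4 lower and 2 higher in RA vs Veh. Over the 10 genes the log2 fold changes had a median of -0.18 for RA, -0.38 for NR and -0.45 for NRRA, where the median of all tested genes was -0.019, 0.0057 and 0.030. The libraries of NR and Veh did not overlap for 7 of the 10 genes, against 69.0% of all genes, those of NRRA and Veh for 10 of 10, against 77.3%, and those of RA and Veh for 9 of 10, against 68.1%. With 2 libraries per condition such separation is frequent, so the calls below rest on the fitted test. The 3 comparisons share the Veh libraries.

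**Figure D1:**
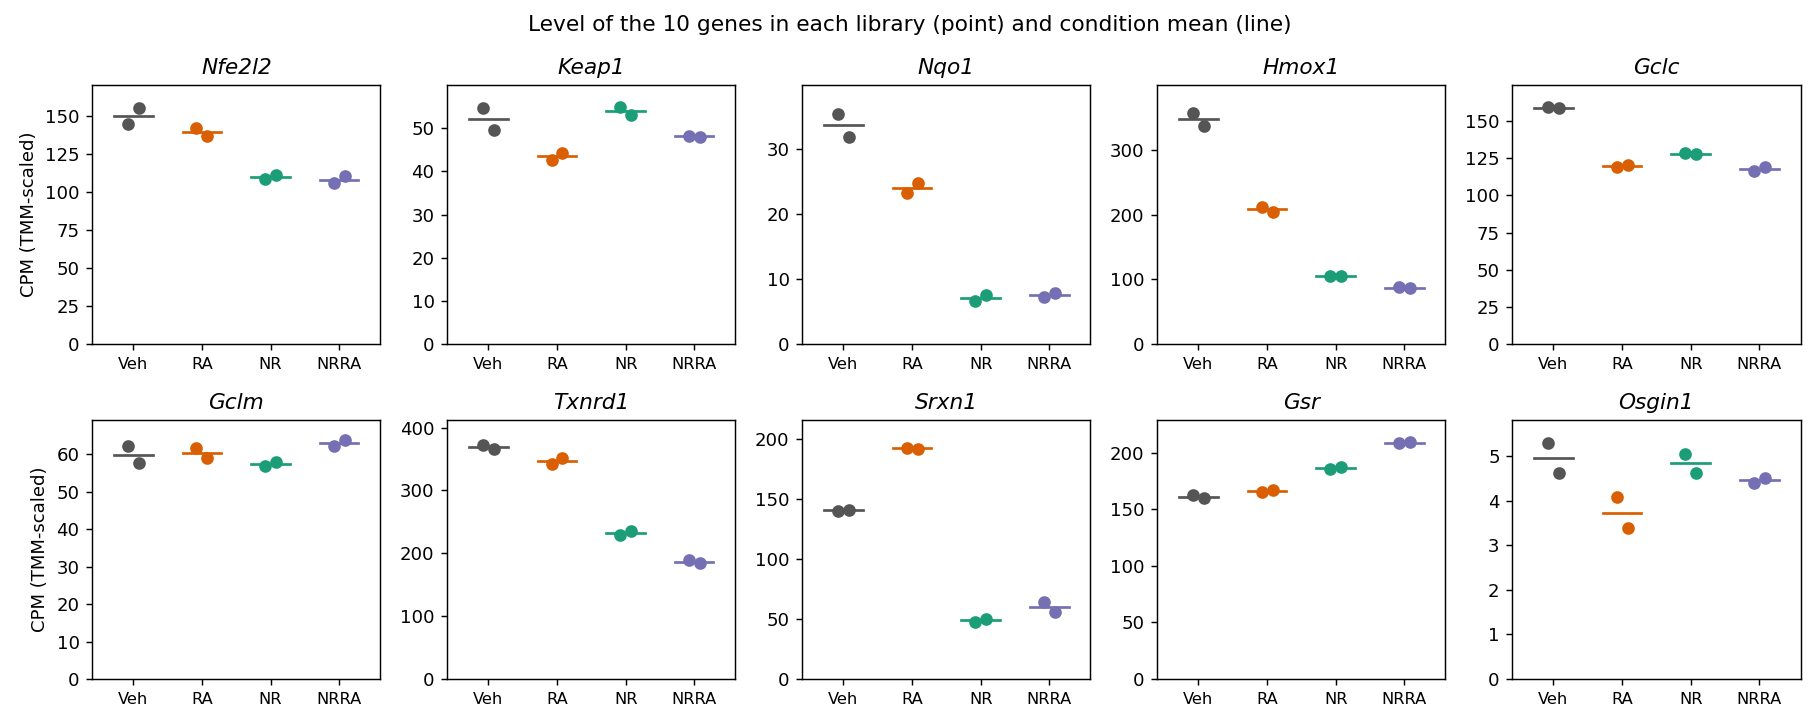
Level of each gene in CPM (scaled by TMM, y axes start at 0) in each of the 8 libraries (points) with the mean of the condition (line), for Veh, RA, NR and NRRA. *Nqo1* sits at 31.8 to 35.5 CPM in Veh and at 6.65 to 7.93 CPM in the 4 libraries with nutrient restriction, while *Gclm* stays between 56.9 and 63.8 CPM in all 8 libraries.

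*Nfe2l2* (ENSMUSG00000015839, chromosome 2 of GRCm38 from 75675513 to 75704641, minus strand) had 145 and 155 CPM in the Veh libraries, RA gave 142 and 137, NR gave 108 and 111, and NRRA gave 106 and 111. All 4 libraries with nutrient restriction lay below all 4 without it. NR differed from Veh by -0.45 on the log2 scale (SE 0.050, edgeR adjusted p = 3.34e-08), or 1.36-fold, and NRRA differed from it by -0.47 (SE 0.049, adjusted p = 5.54e-09), or 1.39-fold. In RA the value was -0.11 (95% interval -0.21 to -0.0066, adjusted p = 0.0795), which did not pass, although without Veh replicate 1 it did (-0.137, adjusted p = 0.0200). In order of level, Veh and RA were not told apart, RA lay above NR (adjusted p = 2.04e-06), and NR and NRRA were not told apart (adjusted p = 0.752).

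*Keap1* (ENSMUSG00000003308, chromosome 9 from 21229730 to 21239361, minus strand) moved by small amounts. It had 54.6 and 49.5 CPM in the Veh libraries, RA gave 42.6 and 44.4, NR gave 54.9 and 53.1, and NRRA gave 48.2 and 48.0. RA was lower than Veh by 0.26 on the log2 scale (log2 fold change -0.26, SE 0.062, adjusted p = 0.00138), and the Veh libraries themselves differed by more than those of the other conditions. Without Veh replicate 1 the value was -0.16 and was not called (adjusted p = 0.0562). The changes in NR (0.052, 95% interval -0.073 to 0.18) and NRRA (-0.11, 95% interval -0.24 to 0.010) did not pass, although without Veh replicate 2 the NRRA value was -0.184 and passed (adjusted p = 0.0112), and without Veh replicate 1 it was -0.036. Of its exon bases, 10.9% overlap *Gm16754* on the opposite strand, and whether the counting used the strand is not given in the sources used here.

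**Figure D2:**
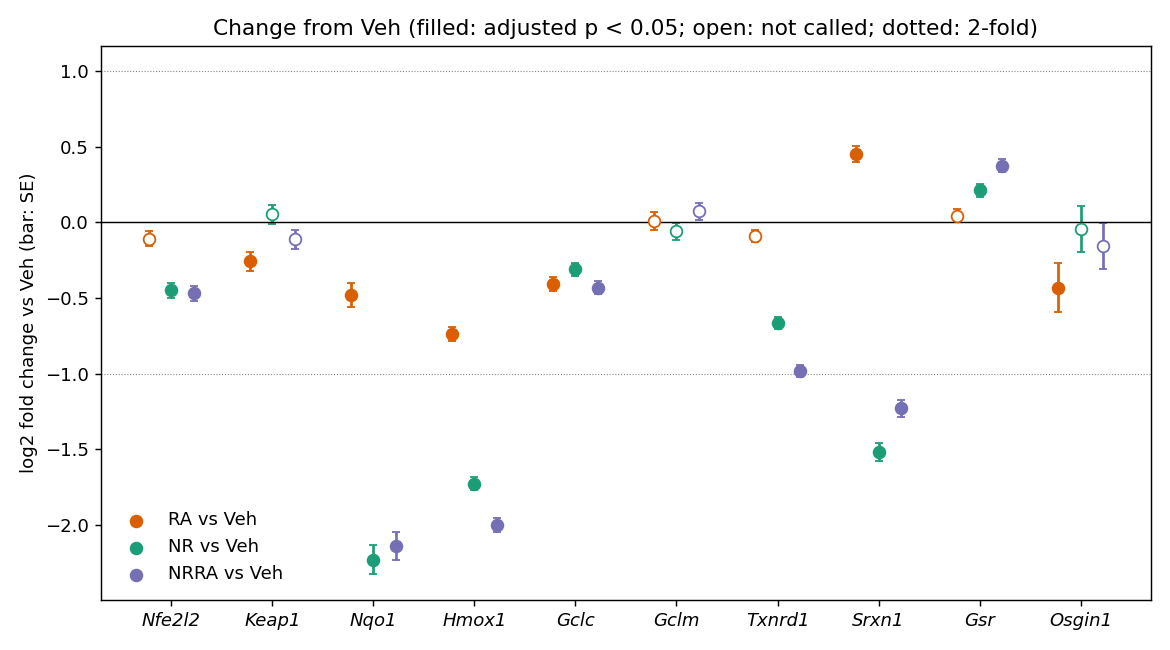
log2 fold change against Veh (y axis) of each gene in RA, NR and NRRA, with bars of 1 SE, filled where the edgeR adjusted p was under 0.05 and open where it was not, and dotted lines at a 2-fold change. *Nqo1*, *Hmox1* and *Srxn1* lie below the lower dotted line in NR and NRRA, and *Srxn1* is the one gene that was higher in RA and lower in NR.

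*Nqo1* (ENSMUSG00000003849, chromosome 8 from 107388225 to 107403206, minus strand) encodes a quinone reductase that uses NAD(P)H and is a standard readout of NRF2. It had 35.5 and 31.8 CPM in the Veh libraries, RA gave 23.3 and 24.9, NR gave 6.65 and 7.59, and NRRA gave 7.32 and 7.93. The level fell in RA and again, much further, in both restricted media, without overlap between these 3 steps. RA differed from Veh by -0.48 in log2 terms (SE 0.079, adjusted p = 1.85e-05). NR differed by -2.23 (SE 0.097, adjusted p = 2.09e-16), and NRRA by -2.14 (SE 0.091, adjusted p = 8.16e-17). The absolute change in NR was larger than that of 98.5% of all tested genes. NR and NRRA were not told apart (0.092, 95% interval -0.15 to 0.33).

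*Hmox1* (ENSMUSG00000005413, chromosome 8 from 75093621 to 75100589, plus strand) encodes the inducible heme oxygenase, which breaks heme into biliverdin, iron and carbon monoxide. It had 357 and 337 CPM in the Veh libraries, RA gave 211 and 205, NR gave 105 and 105, and NRRA gave 87.6 and 86.0. The 4 conditions formed a descending order in which each neighbouring pair differed, with adjusted p between 5.52e-16 (NR vs RA) and 3.39e-05 (NRRA vs NR). RA stood at -0.74 (SE 0.043) on the log2 scale from Veh, NR stood at -1.73 (SE 0.046), and NRRA stood at -2.0 (SE 0.046, adjusted p = 1.38e-22), a 4.0-fold lower level. Per kilobase of exon it was the most abundant of the 10 genes in Veh, with a mean of 198 CPM per kb, and in NRRA *Gsr* (75.9) lay above it (49.6).

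Of the thioredoxin arm, *Txnrd1* (ENSMUSG00000020250, chromosome 10 from 82833951 to 82897712, plus strand) encodes the cytosolic reductase that returns electrons from NADPH to thioredoxin. It had 373 and 366 CPM in the Veh libraries, RA gave 342 and 352, NR gave 229 and 236, and NRRA gave 190 and 184. The groups did not overlap, and NR lay clearly below RA. NR differed from Veh by -0.67 on the log2 scale (SE 0.041, adjusted p = 3.64e-13) and NRRA by -0.98 (SE 0.041, adjusted p = 5.66e-17), while RA (-0.090, adjusted p = 0.0747) did not pass. The step from NR to NRRA was a further -0.32 (SE 0.041, adjusted p = 5.58e-07).

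*Srxn1* (ENSMUSG00000032802, chromosome 2 from 152105516 to 152111376, plus strand), which encodes sulfiredoxin, the enzyme that restores over-oxidised peroxiredoxins, took a course of its own. It had 140 and 141 CPM in the Veh libraries, RA gave 193 and 192, NR gave 47.6 and 50.2, and NRRA gave 64.3 and 55.6. The RA libraries lay above Veh and both restricted conditions below it. RA differed from Veh by 0.45 in log2 terms (SE 0.053, adjusted p = 1.24e-07). NR differed by -1.52 (SE 0.059, adjusted p = 1.99e-17), and NRRA by -1.23 (SE 0.057, adjusted p = 4.13e-16). Within the restricted medium it was also higher with retinoic acid, with NRRA above NR by 0.29 (SE 0.061, adjusted p = 0.000322), and NRRA lay 3.21-fold below RA. Among the 4 genes with a printed core, *Srxn1* and *Txnrd1* fell under nutrient restriction by these amounts, *Nfe2l2* fell by less and *Gclm* did not pass. *Nqo1*, whose window held no core, fell further in NR (-2.23), while *Keap1* (0.052) and *Osgin1* (-0.044), also without a core, did not pass. No window was found for *Hmox1*, *Gclc* and *Gsr*.

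The first step of glutathione synthesis is made by a catalytic subunit from *Gclc* and a modifier subunit from *Gclm*, and the 2 genes parted. *Gclc* (ENSMUSG00000032350, chromosome 9 from 77754535 to 77794485, plus strand) had 159 and 159 CPM in the Veh libraries, RA gave 119 and 120, NR gave 128 and 128, and NRRA gave 116 and 119. All treated libraries lay below Veh, and the treated conditions lay close to each other. RA lay at -0.41 on the log2 scale (SE 0.045, adjusted p = 5.03e-08), while NR lay at -0.31 (SE 0.045, adjusted p = 2.83e-06) and NRRA at -0.43 (SE 0.045, adjusted p = 5.33e-09). NRRA was not distinguished from RA (-0.025, 95% interval -0.12 to 0.068).

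*Gclm* (ENSMUSG00000028124, chromosome 3 from 122245557 to 122270732, plus strand) had 62.1 and 57.6 CPM in the Veh libraries, RA gave 61.6 and 59.0, NR gave 56.9 and 57.9, and NRRA gave 62.3 and 63.8. The Veh libraries overlapped with those of RA and of NR, and no comparison of *Gclm* passed the test with all 8 libraries. NRRA vs NR came closest (0.13, adjusted p = 0.0514) and passed without either Veh library (lowest adjusted p = 0.0304). Its intervals against Veh were -0.11 to 0.13 in RA, -0.18 to 0.058 in NR and -0.042 to 0.19 in NRRA on the log2 scale, and scaling by library totals alone moved the NRRA value to 0.188, which was called. The ratio of *Gclc* to *Gclm* in CPM per kilobase of exon was 4.28 and 4.60 for the Veh libraries, RA gave 3.23 and 3.41, NR gave 3.76 and 3.69, and NRRA gave 3.11 and 3.13. All 6 treated libraries had a lower ratio than both Veh libraries. Of the exon bases of *Gclm*, 4.71% overlap *Gm17494* on the opposite strand.

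*Gsr* (ENSMUSG00000031584, chromosome 8 from 33652523 to 33698163, plus strand) encodes glutathione reductase, which regenerates reduced glutathione with NADPH, and it was the only one of the 10 genes that was called higher in NR and in NRRA than in Veh. It had 162 and 160 CPM in the Veh libraries, RA gave 165 and 167, NR gave 186 and 188, and NRRA gave 208 and 210. NR exceeded Veh by 0.21 in log2 terms (SE 0.043, adjusted p = 0.000221) and NRRA exceeded it by 0.37 (SE 0.042, adjusted p = 2.47e-08). RA differed by 0.043 (95% interval -0.046 to 0.13), which did not pass, but scaled by library totals alone it was 0.145 and passed. NRRA was also above NR (0.16, adjusted p = 0.00238). These changes are small, at most 1.30-fold.

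*Osgin1* (ENSMUSG00000074063, chromosome 8 from 119434124 to 119446256, plus strand), an oxidative stress-induced growth inhibitor, was the least abundant of the 10, with between 80 and 141 counts per library. It had 5.30 and 4.64 CPM in the Veh libraries, RA gave 4.08 and 3.40, NR gave 5.06 and 4.63, and NRRA gave 4.39 and 4.53. RA was lower than Veh (log2 fold change -0.43, SE 0.16, adjusted p = 0.0327), a call that ended with DESeq2 (-0.43, adjusted p = 0.148). It also ended without Veh replicate 1 (-0.31), without RA replicate 2 (-0.29) and without either NR library (-0.41 in both). NR (-0.044, 95% interval -0.36 to 0.27) and NRRA (-0.16, 95% interval -0.47 to 0.15) did not pass.

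Whether retinoic acid acted alike in the 2 media was tested as an interaction, in which the RA vs Veh change is subtracted from the NRRA vs NR change. Of the 10 genes, 4 passed, against 13.0% of all genes tested (6.37% higher, 6.58% lower), and none differed by 2-fold or more, against 2.24% of all genes. For *Hmox1* the effect of RA was -0.74 in complete medium and -0.27 in restricted medium, a difference of 0.47 (SE 0.064, adjusted p = 7.72e-06). *Nqo1* had -0.48 in complete medium and 0.092 in restricted medium (difference 0.57, SE 0.14, adjusted p = 0.00634), and *Gclc* had -0.41 and -0.12 (difference 0.29, SE 0.064, adjusted p = 0.00274). In these 3 genes the change with RA was less negative in restricted medium. *Txnrd1* went the other way, with -0.090 in complete and -0.32 in restricted medium (difference -0.23, SE 0.058, adjusted p = 0.00865). The *Nqo1* call was lost without NR replicate 1 or NRRA replicate 2 (adjusted p up to 0.0949), that of *Gclc* without either NR library (up to 0.0504) and that of *Txnrd1* without RA replicate 2 or NRRA replicate 2 (up to 0.0799), so that 2 of the 10 genes passed without NR replicate 1 or without NRRA replicate 2. For *Srxn1* the interaction was -0.16 (95% interval -0.33 to 0.0061), which did not pass.

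**Figure D3:**
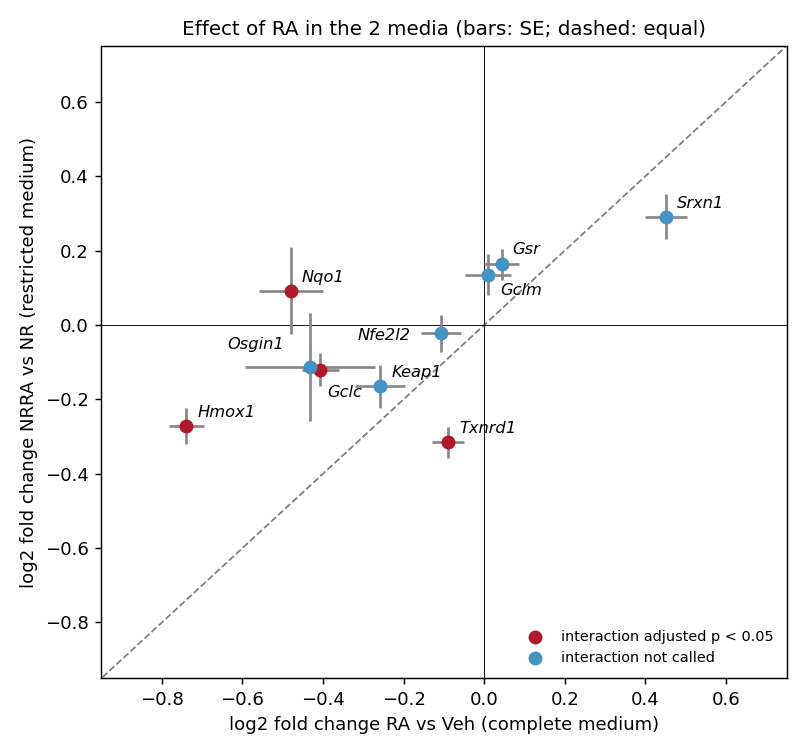
log2 fold change with RA in complete medium (RA vs Veh, x axis) and in restricted medium (NRRA vs NR, y axis) for each of the 10 genes, with bars of 1 SE and a dashed line where both are equal. *Hmox1*, *Nqo1* and *Gclc* (red) lie above the line and *Txnrd1* (red) lies below it, and these 4 passed the interaction test.

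Combined treatment was also set against each single one. Against RA, NRRA had 5 genes lower and 1 higher, where 40.3% of all genes were called (19.4% lower, 20.9% higher), and *Srxn1* (-1.68), *Nqo1* (-1.66) and *Hmox1* (-1.26) were lower by over 2-fold, against 3.68% of all genes. Against NR, NRRA had 4 genes lower and 2 higher, where 43.4% of all genes were called (22.1% lower, 21.3% higher). Scaled by library totals alone this became 2 lower and 3 higher, and the count against RA became 5 lower and 2 higher. With TMM scaling none of the 10 reached 2-fold, against 8.70% of all genes. Those lower were *Txnrd1* (-0.32), *Hmox1* (-0.27), *Keap1* (-0.17) and *Gclc* (-0.12), and those higher were *Srxn1* (0.29) and *Gsr* (0.16). Without NR replicate 1 the count against NR was 3, as *Keap1*, *Gclc* and *Gsr* did not pass. The *Gclc* call against NR was also lost without any other NR or NRRA library, and the *Keap1* call without either NRRA library. NR set against RA gave 5 lower and 3 higher genes (6 and 2 with library totals), against 48.3% of all genes (23.8% lower, 24.5% higher), with *Srxn1* (-1.97) and *Nqo1* (-1.75) lower by over 2-fold, against 5.62% of all genes, and *Keap1* (0.31), *Osgin1* (0.39) and *Gsr* (0.17) higher. The *Osgin1* difference did not hold with DESeq2 (adjusted p = 0.183) or without RA replicate 2, either NR library or either NRRA library (adjusted p 0.0532 to 0.355).

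Per kilobase of exon, the 10 genes in Veh ran from *Hmox1* (198 CPM per kb) through *Gsr* (58.6), *Txnrd1* (52.1), *Srxn1* (49.8), *Gclc* (42.2), *Nfe2l2* (39.5), *Nqo1* (21.7), *Keap1* (11.1) and *Gclm* (9.51) to *Osgin1* (1.86). In NR *Gsr* came first (67.8), *Hmox1* followed with 59.9, *Srxn1* had 17.3 and *Nqo1* 4.59. Across the 8 libraries, log2 CPM of *Nfe2l2* had a Pearson correlation of 0.98 with *Nqo1*, 0.97 with *Hmox1*, 0.95 with *Txnrd1* and 0.90 with *Srxn1*, and of -0.083 with *Gclm* and -0.92 with *Gsr*. These values describe 4 conditions measured in pairs of libraries. Of the 10898 other genes with at least 10 CPM, 385 correlated with *Nfe2l2* above 0.95. Most like *Nfe2l2* were *Mapre1* (r = 0.9986), *Plekhb2* (0.9934) and *Slc25a13* (0.9922). For *Nqo1* they were *Cbl* (0.9993), *Ybx3* (0.9973) and *Gpc1* (0.9963), and for *Hmox1* they were *Hsp90ab1* (0.9989), *Gstp1* (0.9971) and *Pak1* (0.9970). Above 0.95 were 450 genes for *Nqo1* and 600 for *Hmox1*. The correlation does not measure the size of a change. Mean *Cbl* was 171 CPM in Veh and 146 in NR, where *Nqo1* was 33.7 and 7.12. Mean *Hsp90ab1* was 2938 CPM in Veh and 2019 in NRRA, where *Hmox1* was 347 and 86.8.

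Beyond the 10 genes, 68 further genes in 7 lists of related function were read from the same fit, and all 68 were tested. The lists include antioxidant enzymes that were not counted as NRF2 targets. They also hold *Bach1* and *Txnip*, which encode a repressor and an inhibitor, so the counts do not give a direction of the pathway. In NRRA vs Veh 44 were lower and 13 higher, where 28.7% of all genes were lower and 30.1% higher. NR vs Veh had 40 lower and 14 higher, against 22.2% and 21.7% of all genes, and RA vs Veh had 40 lower and 4 higher, against 23.4% and 19.8%. Over these 68 genes the median change in log2 terms came to -0.23 with RA, -0.32 with NR and -0.35 with NRRA. These shares describe lists chosen for their function, with earlier results of these data known, and carry no test.

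Among 15 genes of glutathione supply and use, 10 were lower and 3 higher in NRRA than in Veh, with a median of -0.94. Of all genes tested, 28.7% were lower and 30.1% higher in that comparison. *Slc7a11*, the cystine importer, fell from 40.5 and 46.7 CPM in Veh to 9.43 and 8.93 in NRRA (-2.25 on the log2 scale, SE 0.086, adjusted p = 7.37e-18), and it was lower in RA (-0.92) and in NR (-1.87) as well. *Glrx*, a glutaredoxin, fell from 103 and 109 CPM to 16.2 and 16.3 (-2.70, SE 0.074, adjusted p = 6.67e-21). Of the glutathione transferases *Gstm2* rose by 1.33 (SE 0.10, adjusted p = 1.52e-11) and *Gstm1* rose by 1.21 (SE 0.070, adjusted p = 4.81e-14), both also in NR (1.37 and 0.73). Near-identical copies exist for *Gstm* genes, so reads may be shared among them. In the thioredoxin and peroxiredoxin list, 8 of 13 genes were lower and 1 higher, with a median of -0.33. *Txnip*, an inhibitor of thioredoxin, was lower by a log2 fold change of -1.06, *Txn1*, thioredoxin itself, by -0.94, and *Txnrd3* was higher (0.18). *Txn1* was lower in NR (-0.92) and *Txnip* in RA (-0.54), and the *Txn1* value in RA (-0.034) did not pass.

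NADPH, which the reductases consume, is supplied by enzymes of which 5 of 6 were lower in NRRA and 6 of 6 in NR. Beside the counts of this paragraph, 28.7% of all genes were lower and 30.1% higher in NRRA. In NR the shares were 22.2% and 21.7%. *G6pdx* (-0.98) and *Pgd* (-0.97), the dehydrogenases of the pentose phosphate pathway, had the largest decreases in NRRA. Of 8 detoxification genes, 5 were lower and 3 higher in NRRA, among them *Cbr3*, a carbonyl reductase (-1.71, SE 0.093, adjusted p = 1.48e-14), *Ugdh* (-1.11), *Ces2g* (1.04) and *Aox1* (0.31). Of 8 genes of heme and iron handling, 4 were lower and 3 higher, with the ferritin chains *Ftl1* (-0.59) and *Fth1* (-0.45) lower and the iron exporter *Slc40a1* (0.36) and *Fech* (0.28) higher. Processed copies of ferritin genes can share their reads, and 26.5% of the exon bases of *Ftl1* overlap *Gm10252* on the opposite strand, as do 13.6% of those of *G6pdx* with *Ikbkg*. Of 11 factors and turnover genes, 7 were lower and 2 higher, and *Maff*, one of the small MAF partners, fell from 25.6 and 23.8 CPM in Veh to 7.22 and 6.16 in NRRA (-1.89, SE 0.096, adjusted p = 3.33e-15), with *Mafg* at -0.58 and the BACH1 relative *Bach2* at 0.53. Of 7 other antioxidant enzymes, which were not counted as NRF2 targets, 5 were lower and 1 higher in NRRA. *Sod3*, the extracellular superoxide dismutase, was at -0.55 in NRRA, -1.51 in RA and 0.49 in NR, all called, *Cat*, catalase, was lower in NRRA (-0.37), and *Gpx3* was higher (0.22).

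**Figure D4:**
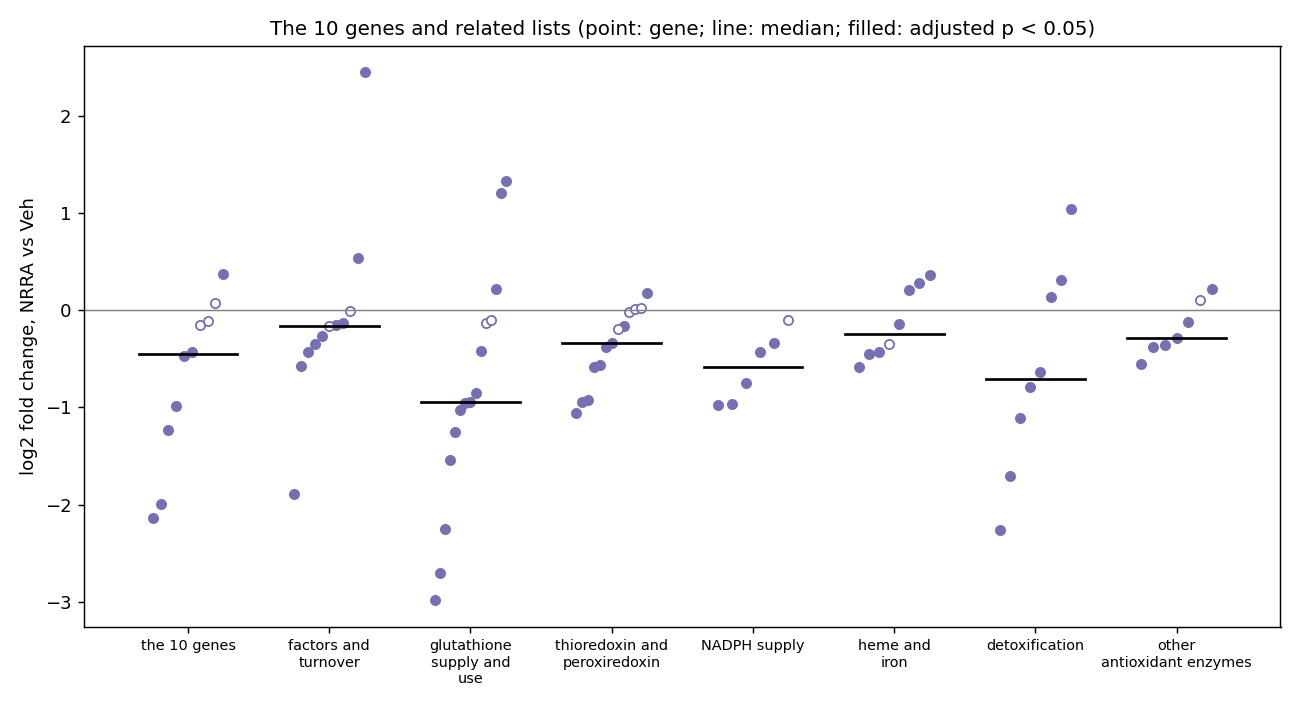
log2 fold change in NRRA vs Veh (y axis) of each of the 10 genes and of the 68 genes in the 7 related lists (x axis), where a point is a gene, filled at an edgeR adjusted p under 0.05, and a line is the median of the list. The medians run from -0.94 (glutathione supply and use) to -0.16 (factors and turnover), with -0.45 for the 10 genes.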

How the data were processed

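RNA-seq of 8 libraries was analysed, 2 per condition, grouped by sample title. The authors deposited whole-number read counts per gene without normalization. The submitters' processing notes name bcl2fastq, STAR 2.6.1c, featureCounts 1.6.4 and mm10, and the strand setting is not given in the sources used here. Total counts were 19261333 to 30023585 per library. Replicates differed by more than sampling noise (chi-square per gene 1.58 to 3.93), and all 8 were kept. 0 columns had no sample and 0 rows named no gene.

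Counts were filtered with filterByExpr, scaled by TMM and fitted with edgeR 4.0.16 in R 4.3.3 (quasi-likelihood, 1 coefficient per condition, 4 residual degrees of freedom, biological coefficient of variation 3.35%). Benjamini-Hochberg adjustment ran over 20477 genes in each comparison, and calls needed an adjusted p under 0.05. The SE is the absolute log2 fold change divided by the square root of F, and intervals are 95%. Tests and intervals used the total degrees of freedom (median 25.0). These exceed the residual ones because the fit also draws on the spread of other genes. CPM use TMM-scaled totals, and log2 CPM a prior count of 2. Coordinates and exon lengths come from GENCODE M21 (GRCm38), which held 55240 of 55421 identifiers. The model was tested on simulated data. Alternatives were DESeq2 1.42.0, RLE scaling, library totals, no filter, fits of 2 conditions, a replicate block, leaving out each library and a 2-fold threshold.

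The genes and lists were chosen with earlier results of these data known. From each list the text names up to 2 genes with the largest increase and 2 with the largest decrease in NRRA vs Veh provided they were called there and averaged 50 counts or more, and for *Nfe2l2*, *Nqo1* and *Hmox1* the 3 genes of 10 CPM or more on average with the highest correlation.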

Additional observations from a re-analysis of the deposited data

Results flagged for a closer look

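The effect of retinoic acid differed between complete and restricted medium for 4 of the 10 genes by edgeR's interaction test, against 13.0% of all genes tested. The log2 difference, restricted minus complete medium, was 0.57 for *Nqo1* (adjusted p = 0.00634), 0.47 for *Hmox1* (adjusted p = 7.72e-06), 0.29 for *Gclc* (adjusted p = 0.00274) and -0.23 for *Txnrd1* (adjusted p = 0.00865). Leaving out 1 library at a time gave 0.45 to 0.64, 0.39 to 0.49, 0.25 to 0.31 and -0.28 to -0.20 in the same order. The calls of *Nqo1*, *Gclc* and *Txnrd1* did not hold in all of these fits, as given above. Of the 12 fibroblast markers, 8 were lower and 1 higher with RA in complete medium, and 9 were lower and 0 higher with RA in restricted medium. Their part in these differences was not tested.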

How the results depend on the processing

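The count of the 10 genes called moved beyond 1.5 times with the 2-fold threshold. It went to 0 in RA vs Veh, 3 in NR vs Veh and 3 in NRRA vs Veh. It was 3 in NRRA vs RA, 0 in NRRA vs NR, 2 in NR vs RA and 0 in the interaction. The count of the 68 related genes went to 4 (RA vs Veh), 9 (NR vs Veh) and 15 (NRRA vs Veh). Leaving out 1 library, where the lone library of that condition is assumed to vary like the others, gave 5 to 6 genes in RA vs Veh, 7 in NR vs Veh, 7 to 8 in NRRA vs Veh, 6 to 7 in NRRA vs RA, 3 to 7 in NRRA vs NR, 7 to 9 in NR vs RA and 2 to 4 in the interaction. DESeq2, RLE scaling, library totals and no filter kept the 7 counts within 1.5 times, as did fits of 2 conditions for the 6 comparisons other than the interaction, which they cannot give. Library totals moved the balance from 5 lower and 1 higher to 4 and 2 in RA vs Veh, from 6 and 1 to 6 and 2 in NRRA vs Veh, from 5 and 1 to 5 and 2 in NRRA vs RA, from 4 and 2 to 2 and 3 in NRRA vs NR, and from 5 and 3 to 6 and 2 in NR vs RA.

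Signs turned only for values that were not called. Library totals without scaling, which shifted the median of all genes by 0.10 in RA vs Veh and 0.11 in NRRA vs Veh, gave *Txnrd1* 0.011 in RA vs Veh, *Keap1* 0.000 in NRRA vs Veh and *Nfe2l2* 0.059 in NRRA vs NR. Without the filter *Gclm* was -0.002 in RA vs Veh. Leaving out 1 library gave *Gclm* -0.029 to 0.086 in RA vs Veh and -0.101 to 0.014 in NR vs Veh, *Keap1* -0.004 to 0.144 and *Osgin1* -0.122 to 0.076 in NR vs Veh, *Nfe2l2* -0.060 to 0.009 and *Nqo1* -0.010 to 0.187 in NRRA vs NR, and *Keap1* -0.020 to 0.128 in the interaction. Causes were not tested.

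Replicate numbers did not pair the samples (correlations of deviations between -0.033 and 0.023), and a replicate block gave 6, 7, 7, 6, 6, 8 and 4 called genes in the 7 comparisons, as without it. With 2 libraries per condition and 80 to 141 counts of *Osgin1*, changes of that gene have the widest errors.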

Other observations

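Some related genes, chosen after their values were seen, responded to RA and to nutrient restriction in opposite directions. Of the 12 fibroblast markers, 8 were lower and 1 higher in RA, and 10 were higher and 1 lower in NR, both against Veh. Their part in the values below was not tested. *Bach1*, which encodes the repressor of *Hmox1*, had 78.9 and 81.3 CPM in the Veh libraries, RA gave 54.6 and 54.2, NR gave 92.3 and 93.2, and NRRA gave 60.1 and 58.6. Its lowest levels were in RA and NRRA. Whether it had a part in the *Hmox1* values was not tested. *Sod2*, the mitochondrial superoxide dismutase, had 163 and 169 CPM in the Veh libraries, RA gave 106 and 104, NR gave 258 and 263, and NRRA gave 151 and 154. *Ephx1*, an epoxide hydrolase, had 131 and 126 CPM in the Veh libraries, RA gave 89.3 and 84.9, NR gave 185 and 188, and NRRA gave 141 and 141. In contrast, *Abcc1*, an exporter of glutathione conjugates, had 235 and 234 CPM in the Veh libraries, RA gave 229 and 215, NR gave 122 and 128, and NRRA gave 120 and 124.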
